A study of Mus musculus with 4 samples.

Results

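Golph3 is a protein-coding gene on the plus strand of mouse chromosome 15 (ENSMUSG00000022200.6, chr15:12251205-12281346, build mm9), and its chromosomal contacts were examined in tiled Capture-C maps of mouse embryonic stem cells (mESCs). The viewpoint comprised the 9 bins of 6.4 kb at chr15:12230401-12288000, which hold the gene, the region before its start and the 3′ end of the neighbouring gene Pdzd2. The start of Golph3 falls in the fourth of these bins (chr15:12249601-12256000). Paired with every bin of the captured region (chr15:10278401-13196800, 456 bins), the viewpoint gave 4068 bin pairs out of 104196 in this region and 926841 in the whole maps. It had been chosen for a contact near chr15:12684801-12691200 whose enrichment over the expected value was higher after cohesin degradation, so the values of that contact before and after degradation are given as a description.

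4 groups of 1 library each were compared, all made from E14 mESCs, an established male line. All lines carried TetO and LacO operator arrays in a TAD of chromosome 15 from which endogenous CTCF sites had been deleted, and expressed RAD21, the kleisin subunit of cohesin, fused at both alleles to HaloTag-FKBP. In 1B1 the arrays were flanked by convergent 3xCTCF cassettes. In 1A2 these cassettes had been removed, and in 1F4 they had been removed while the promoters of the resistance cassettes were kept. The library called treated below (1B1 cohesin degraded) was prepared after 2 h of 1B1 culture with 500 nM dTAG-13, which directs FKBP-tagged proteins to the proteasome. Each line was a single clone and there were no replicates, so no test across cultures was possible. Intervals below are 95% intervals of the read counts (exact Poisson for a level, Clopper-Pearson for a ratio). They describe the counting error within each library. With 1 library per group, the spread among cultures is not part of them.

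In vertebrate chromosomes cohesin extrudes loops of chromatin until it is released or is halted, most often at CTCF sites, and its action gives rise to TADs, to their boundaries and to loops between CTCF sites. When RAD21 is degraded these structures are lost, while contacts that arise by other means, such as those between active chromatin segments, can persist. Golph3 encodes a Golgi protein that binds phosphatidylinositol 4-phosphate and keeps glycosylation enzymes in the Golgi, and it is transcribed in many cell types. Its downstream neighbour Pdzd2, a gene for a protein with several PDZ domains, lies on the opposite strand, so that both genes end next to each other.

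The 250 bases before the annotated start of Golph3 (chr15:12250955-12251204, plus strand, from the NCBIM37 sequence) are shown first. They lie in the start bin, on which the contact profile below is centred, and are a small part of it. CpG dinucleotides are in capitals.
Golph3 promoter: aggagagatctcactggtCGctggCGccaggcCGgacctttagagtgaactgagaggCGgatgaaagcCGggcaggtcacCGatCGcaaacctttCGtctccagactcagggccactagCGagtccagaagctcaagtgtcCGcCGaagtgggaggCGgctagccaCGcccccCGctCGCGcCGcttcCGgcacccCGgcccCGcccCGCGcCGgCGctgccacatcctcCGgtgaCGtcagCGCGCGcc
This stretch held 29 CpG dinucleotides and 68.8% G or C. Among the 22 protein-coding genes that start in the captured region, the count of CpG in the same window ranged from 2 to 33 with a median of 13.5, and Golph3 had rank 3. Genes with such CpG-rich promoters are commonly broadly expressed.

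The 4 libraries held 3214144 to 4089968 read pairs, of which 1222239 to 1558596 lay in the captured region and 35371 to 44180 touched the viewpoint. As a share of all read pairs of the region these made up 2.89% (1A2), 2.83% (1F4), 2.99% (1B1) and 2.62% (treated). Contact is given as observed/expected, that is, the balanced contact value over the average of all bin pairs of the region with the same separation. Unless a single bin pair is named, it was averaged over a window of 3 by 3 bins.

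In every library the 3 highest windows of the Golph3 start-bin profile over 60 kb away lay next to each other, 435.2 to 448 kb downstream. Between the Golph3 start bin and the far bin (435.2 kb downstream, in the gene-free interval beyond the start of Pdzd2), observed/expected was 5.23 (4.49 to 6.06) in 1A2, 6.13 (5.37 to 6.96) in 1F4, 4.99 (4.29 to 5.78) in 1B1, against 7.94 (6.86 to 9.14) in the treated library. From the bin at chr15:12236801-12243200, upstream of the gene and 448 kb from the far bin, it was 5.65, 6.13, 5.06 and 8.43 in the same order. The window 448 kb from the start bin was at 5.40, 6.66, 5.57 and 7.88. The treated library stood above the untreated ones, by an amount that depended on the library it was set against. From the start bin the log2 ratio of treated was 0.67 (0.37 to 0.97) to 1B1, 0.60 (0.30 to 0.903) to 1A2 and 0.37 (0.09 to 0.65) to 1F4, and from the upstream bin it was 0.74 (0.44 to 1.04), 0.58 (0.28 to 0.87) and 0.46 (0.18 to 0.74). The untreated lines also differed, since 1B1 was below 1F4 from the start bin by a log2 ratio of -0.30 (-0.58 to -0.01). Percentiles were taken among the windows of the region with the same separation, 379 for the start bin and 377 for the upstream bin. The log2 ratio of treated from the start bin was at percentile 80.5 to 1B1, 78.9 to 1A2 and 59.9 to 1F4. From the upstream bin it was at percentile 85.9, 76.7 and 67.1 in the same order.

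**Figure D1:**
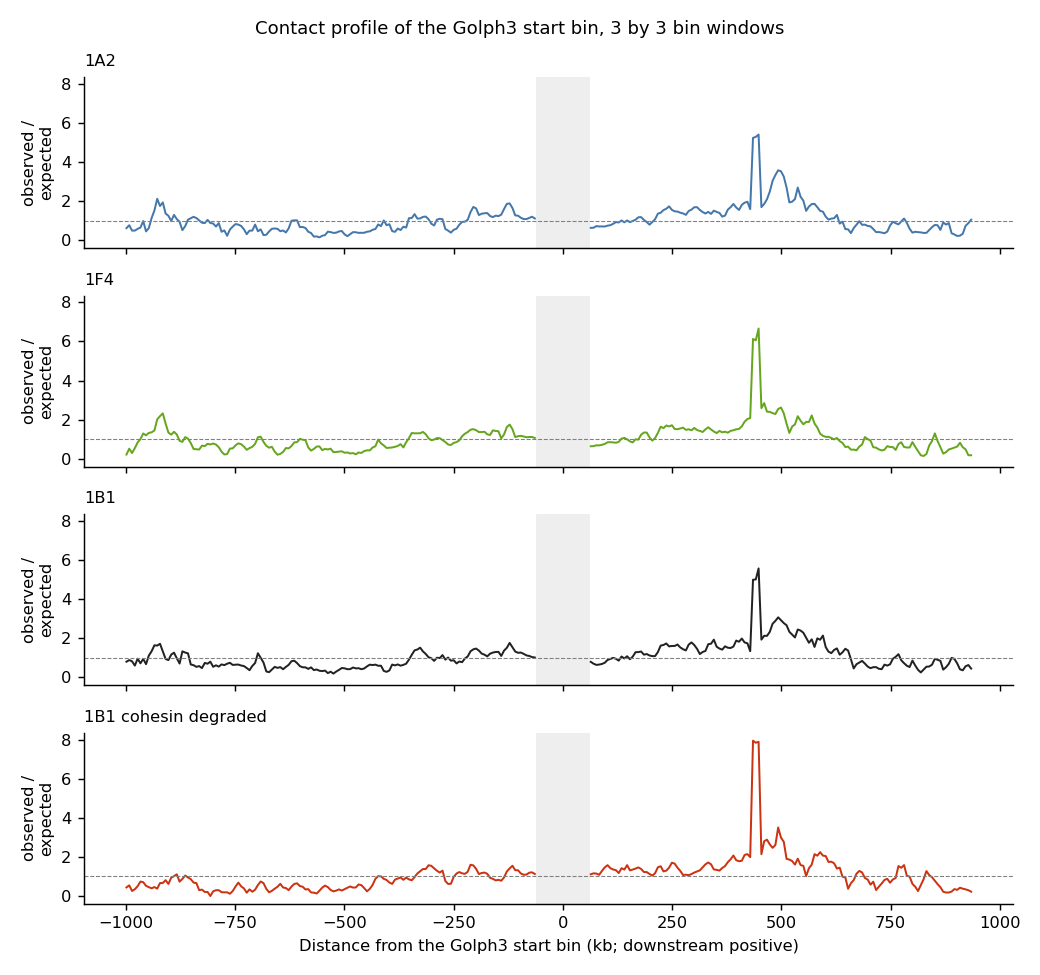
Observed/expected contact of the Golph3 start bin, in windows of 3 by 3 bins, against distance from that bin in kb, with 1 panel per library; the grey band covers separations under 60 kb and the dashed line marks 1. A narrow peak 435.2 to 448 kb downstream stands above the rest of the profile in all 4 libraries, at 5.23, 6.13, 4.99 and 7.94 in the window of the named far bin.

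The peak resolved to 1 bin pair. Neither the start bin nor the named upstream bin was part of it: it joined the bin between them (chr15:12243201-12249600, directly before the start bin, with no annotated gene) to chr15:12691201-12697600 (448 kb away, also with no annotated gene), which is the bin after the named far bin. The read pairs it held numbered 139 (1A2), 176 (1F4), 128 (1B1) and 162 (treated). Its observed/expected was 35.6 (29.96 to 42.1), 40.2 (34.5 to 46.6), 33.1 (27.7 to 39.4) and 58.1 (49.5 to 67.7), the highest of all bin pairs at that separation, where the next highest was 6.25, 6.62, 4.43 and 3.68. The 8 bin pairs around it together held only 51, 63, 59 and 27 read pairs, and their mean observed/expected was 1.48, 1.67, 1.46 and 1.16. The signal thus did not spread to adjacent bins, in the treated library or in the untreated ones.

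**Figure D2:**
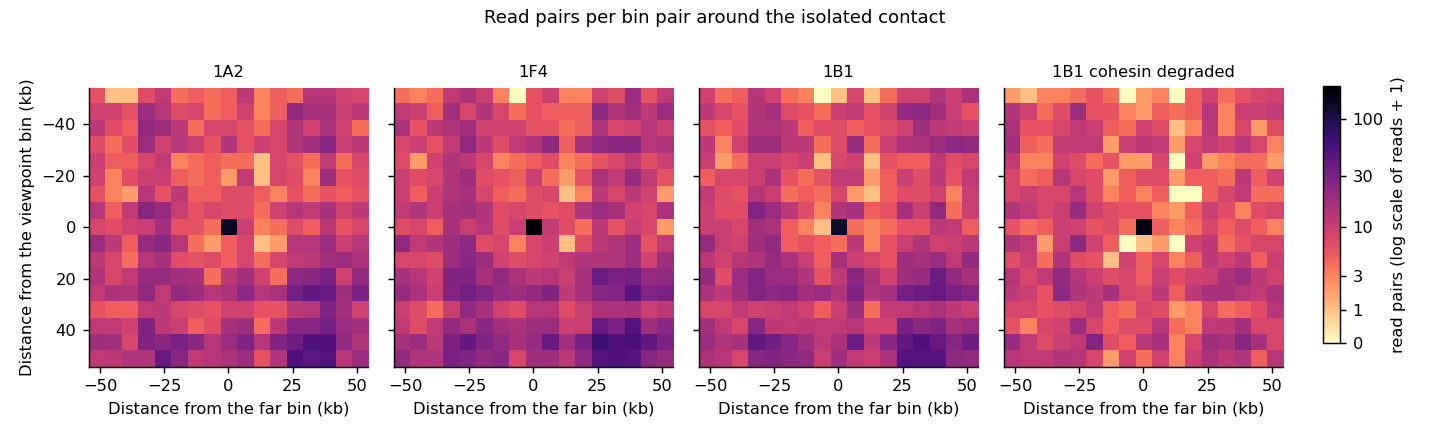
Read pairs per bin pair (colour, log scale) within 8 bins of the isolated contact, with distance from its viewpoint bin on the vertical axis and from its far bin on the horizontal axis, both in kb, for each library. The central bin pair holds 139, 176, 128 and 162 read pairs, and no adjacent pair holds more than 16.

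The other 8 viewpoint bins did not share the contact. With the same far bin, their observed/expected ranged from 1.120 to 2.61 in 1A2, from 1.18 to 2.26 in 1F4, from 0.88 to 3.22 in 1B1, against 0.31 to 2.22 in the treated library. The Golph3 start bin itself had 5, 8, 4 and 1 read pairs with it, an observed/expected of 1.120, 1.48, 0.88 and 0.31. In the windows of the start bin and the upstream bin the single pair supplied 71.9% to 83.5% of the read pairs. Without it, an alternative chosen after seeing the data, the start-bin window was at 1.43, 1.87, 1.47 and 1.68, and its log2 ratio of treated to 1B1 was 0.19 (-0.50 to 0.85). The upstream-bin window was then at 1.90, 1.88, 1.55 and 2.22, with a log2 ratio of 0.52 (-0.12 to 1.17). Both intervals include 0, so a change of these windows apart from the pair was not detectable at this depth.

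No other bin pair among those with enough reads to be searched had this form. Of 2164 bin pairs with at least 20 read pairs in all 4 libraries and at least 60 kb apart, of which 127 were at least 250 kb apart, this was the only 1 that reached 3 times the mean of its 8 neighbours in every library. The isolated pair stood at 24.0, 24.1, 22.7 and 49.97 times that mean.

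The amount of this contact and its enrichment moved differently after cohesin degradation. Per 1000000 read pairs of the region, the pair held 113 (95.3 to 134) in 1A2, 113 (96.9 to 131) in 1F4, 105 (87.4 to 125) in 1B1, against 118 (100.4 to 137) in the treated library, so that all 4 intervals overlapped. The log2 ratio of treated to 1B1 was 0.17 (-0.17 to 0.52) in these units and 0.26 (-0.08 to 0.61) in the balanced values, which were 1191, 1206, 1065 and 1278. The expected value at 448 kb was 33.4, 30.02, 32.1 and 22.0, a fall by 0.55 on the log2 scale from 1B1 to the treated library. Divided by it, the same pair gave a log2 ratio of 0.81 (0.47 to 1.15), and it gave 0.704 (0.37 to 1.04) against 1A2 and 0.53 (0.21 to 0.85) against 1F4. The higher enrichment after cohesin degradation was therefore carried mostly by the lower expected value, and a change of the contact itself between 1B1 and treated cells was not detectable beyond counting error. Between the untreated lines the log2 ratio of the pair in read pairs per 1000000 was -0.01 (-0.34 to 0.33) for 1F4 against 1A2, -0.12 (-0.47 to 0.24) for 1B1 against 1A2 and -0.11 (-0.45 to 0.23) for 1B1 against 1F4.

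**Figure D3:**
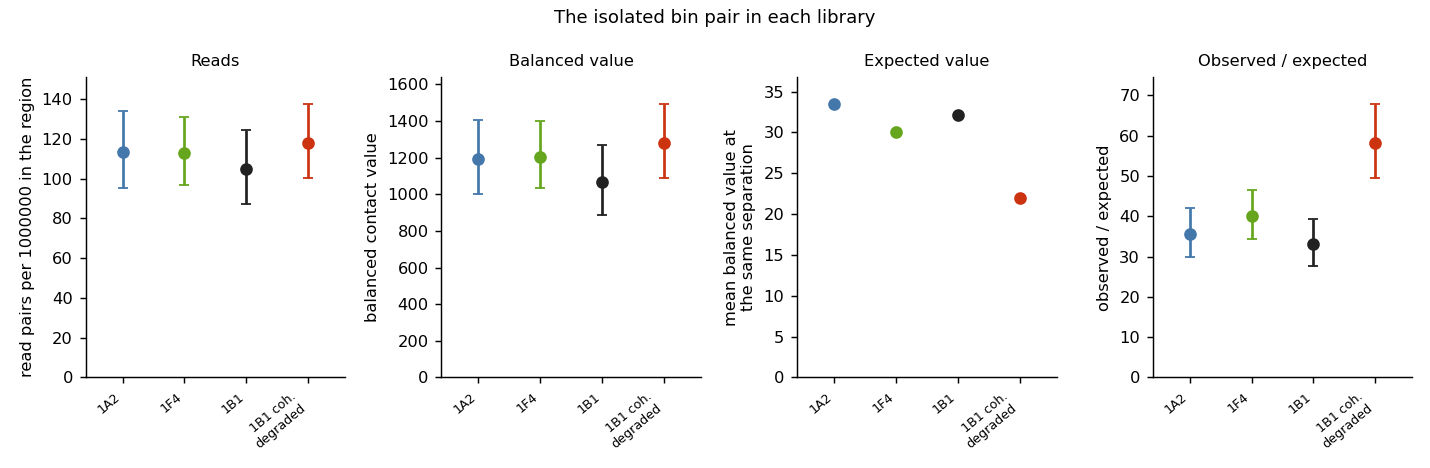
The isolated bin pair in the 4 libraries on 4 scales: read pairs per 1000000 of the region, balanced value, mean balanced value of all bin pairs 448 kb apart, and observed/expected. Points are single libraries and bars are 95% counting intervals; the mean at 448 kb is drawn without a bar. Read pairs per 1000000 lie between 105 and 118, while the expected value is 22.0 in the treated library and 30.02 to 33.4 in the others.

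The sequence of both bins was read to describe the anchors. MboI, the enzyme used to cut the chromatin, recognises GATC, and its sites numbered 17 in the viewpoint bin and 13 in the far bin, with a range of 4 to 38 and a median of 15 over the 456 bins. The G and C content was 44.1% and 44.9%, where the median bin had 42.9%. Alignment of both bins gave 5 stretches of similar sequence. The most similar of those over 100 columns spanned 179 aligned columns at 88.3% identity on the same strand, and it is shown because reads of similar sequence are the hardest to place. Another of 179 columns had 86.6% identity on the same strand, and the longest had 264 columns at 75% identity on opposite strands. GATC is in capitals.
Viewpoint side, chr15:12244031-12244206, plus strand: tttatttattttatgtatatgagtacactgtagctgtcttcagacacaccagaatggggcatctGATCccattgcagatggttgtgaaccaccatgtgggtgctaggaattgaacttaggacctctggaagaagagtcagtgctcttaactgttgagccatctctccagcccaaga
Far side, chr15:12695488-12695666, plus strand: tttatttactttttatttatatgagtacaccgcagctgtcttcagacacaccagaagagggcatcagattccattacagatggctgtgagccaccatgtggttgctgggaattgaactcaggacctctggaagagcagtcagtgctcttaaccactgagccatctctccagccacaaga
An alignment of at least 100 columns occurred in 36.5% of the 386 bin pairs with the same separation. A stretch at least as long and as similar as the one shown was shared by 10 of them (2.59%), and by 1589 of the 99681 bin pairs at least 64 kb apart (1.59%). Both counts take in the isolated pair itself, whose own stretch set the limit. Whether read placement, the ligation step or a rearrangement of the genome of these cells had a part in the isolated contact was not tested.

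CTCF motif letters were searched on both strands because CTCF sites anchor cohesin loops. A strict form of the core CTCF motif (12 letters) occurred in 0 of the 9 viewpoint bins and in 0 of the 8 bins from 3 before to 4 after the named far bin, and in 3 of all 456 bins (0.658%). A looser form, which leaves 2 of its G positions free and includes the strict one, occurred in 46 bins (10.1%), among them 2 viewpoint bins and the far bin of the isolated pair. These 3 matches are shown 5′ to 3′ on the strand of the match, with the motif in capitals and 9 bases on either side.
Viewpoint bin 1, chr15:12234954-12234965, minus strand: cagtctccaCCTCCAGAGGGCtgggattac
Viewpoint bin 6 (Golph3 intron), chr15:12266895-12266906, plus strand: gtatgtactCCTCCAGTAGGCtcttggaat
Far bin of the isolated pair, chr15:12692305-12692316, plus strand: gagaaccctCCACCAGAAGGCgaactcttt
The viewpoint bin of the isolated pair and the Golph3 start bin held neither form. A match describes letters only, and CTCF binding was not analysed here.

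Downstream of Golph3, the untreated lines had a dip in contact across the chromosome, as at a boundary between contact domains. The treated library kept only a shallower dip there. Insulation was computed as the log2 of the mean balanced value between the 20 bins before and the 20 bins after a bin, over the mean of this quantity in the region, so that low values mark boundaries. It fell along the viewpoint from 0.03 in the first bin to -0.38 in the ninth bin in 1A2, from 0.01 to -0.42 in 1F4 and from -0.01 to -0.32 in 1B1. Within 192 kb of the viewpoint on either side, the lowest bin of the untreated lines followed at 38.4 kb (1A2) or 44.8 kb (1F4 and 1B1) beyond the start bin, inside Pdzd2. Farther away, 256 kb downstream, insulation was again low in these lines, at -0.39 in 1A2, -0.54 in 1F4 and -0.37 in 1B1, against 0.14 in the treated library. At 44.8 kb (chr15:12294401-12300800) insulation was -0.43 in 1A2, -0.48 in 1F4 and -0.39 in 1B1, each with a counting SE of 0.02, against 0.12 ± 0.02 in the treated library. Among all bins with a value, these were at percentile 17.5, 14.9, 16.1 and 61.8. The treated library still had a local minimum of 0.07 at 51.2 kb, against 0.22 at 25.6 kb and 0.19 at 76.8 kb. The difference of treated from 1B1 was 0.51 ± 0.02 (counting SE), at percentile 93.3 of the 416 bins with a value. It was 0.49 when observed/expected values filled the square, 0.62 with a square of 10 bins and 0.45 on unbalanced reads, and it was 0.55 and 0.60 against 1A2 and 1F4. This bin was picked as the lowest in 1F4 and 1B1, which tends to raise the difference and its percentile, so both are a description.

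Not every dip near Golph3 behaved in this way. The bin with the start of Zfr (204.8 kb upstream), a gene for a zinc finger protein that binds RNA, had an insulation of -0.39 in 1A2, -0.40 in 1F4, -0.35 in 1B1, against -0.32 in the treated library, a difference of 0.03 ± 0.03 (counting SE) between treated and 1B1. The direction of this difference was not stable, as it was 0.096 on observed/expected values, -0.075 with a square of 10 bins and -0.069 on unbalanced reads. The difference at the Golph3 start bin lay between these, with 0.24 ± 0.02, at percentile 77.4 of all bins, and the untreated lines differed there by 0.024 or less. Its size depended on the setting, with 0.055 for a square of 10 bins, 0.14 on unbalanced reads and 0.30 on observed/expected values. Over the viewpoint bins the difference ranged from 0.09 to 0.47.

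**Figure D4:**
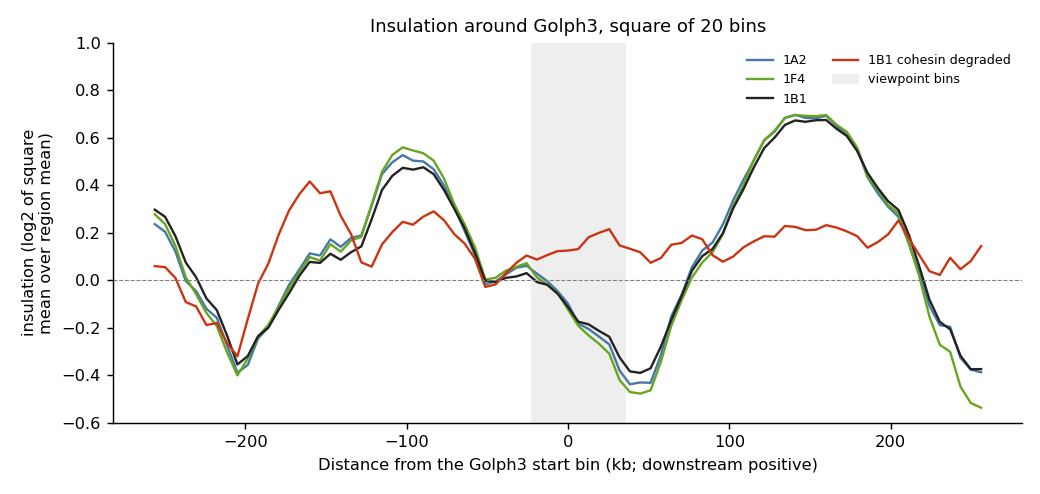
Insulation (log2) against distance from the Golph3 start bin in kb for the 4 libraries; the grey band covers the viewpoint bins and low values mark boundaries. The dip at 44.8 kb lies between -0.48 and -0.39 in the untreated lines and at 0.12 after cohesin degradation, while the dip at -204.8 kb is at -0.40 to -0.35 and -0.32.

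The same place was seen in the contacts of the viewpoint grouped by separation. Most bin pairs of the viewpoint with partners 25 to 100 kb downstream reach the dip or cross it. In this band, mean observed/expected of the 9 viewpoint bins was 0.74 (0.71 to 0.77) in 1A2, 0.76 (0.73 to 0.78) in 1F4, 0.77 (0.75 to 0.80) in 1B1, against 1.08 (1.05 to 1.11) in the treated library. Counting intervals of the untreated libraries overlapped and the treated library lay above all of them. The log2 ratio of treated to 1B1 was 0.48 (0.41 to 0.55), at percentile 94.2 of 414 stretches of 9 bins placed elsewhere in the region, and it was 0.55 and 0.51 against 1A2 and 1F4. With partners at the same separation upstream, the values were 1.13, 1.14, 1.11 and 1.09, a log2 ratio of -0.02 (-0.09 to 0.04). At 100 to 250 kb the values were 1.155, 1.152, 1.201 and 1.27 downstream, a log2 ratio of 0.08 (0.01 to 0.15) that became -0.0047 on unbalanced reads, and 1.20, 1.27, 1.18 and 1.16 upstream, a log2 ratio of -0.03 (-0.10 to 0.04).

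Far upstream the viewpoint had fewer contacts after cohesin degradation. With partners 500 to 1000 kb upstream, mean observed/expected was 0.70 (0.66 to 0.74) in 1A2, 0.70 (0.67 to 0.74) in 1F4, 0.68 (0.65 to 0.72) in 1B1, against 0.48 (0.44 to 0.51) in the treated library. The log2 ratio of treated to 1B1 was -0.52 (-0.65 to -0.40), at percentile 14.3 of 273 stretches. At 1000 to 2000 kb upstream it was -0.23 (-0.34 to -0.11), at percentile 33.1 of 133 stretches. At 250 to 500 kb upstream it was instead 0.16 (0.06 to 0.26), at percentile 55.3 of 342 stretches. With the median for the expected value this last ratio was 0.022. Mean observed/expected at 250 to 500 kb upstream remained under 1 in every library (0.71, 0.73, 0.74 and 0.82).

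Downstream at 250 to 500 kb, where the partners are the body and start of Pdzd2 and the interval beyond it, the viewpoint had its highest mean observed/expected. The values were 1.80 (1.74 to 1.85) in 1A2, 1.79 (1.74 to 1.83) in 1F4, 1.79 (1.74 to 1.84) in 1B1, against 1.77 (1.70 to 1.83) in the treated library, with the isolated pair left out. The log2 ratio of treated to 1B1 was -0.02 (-0.09 to 0.05), and it was -0.15 with the median for the expected value and 0.13 from the start bin alone. Of the band means, only that at 500 to 1000 kb downstream had a log2 ratio between untreated lines of over 0.20, as 1F4 was at 0.85, 1A2 at 0.94 and 1B1 at 0.99 (log2 ratio of 1B1 to 1F4 0.21, 0.13 to 0.30, at percentile 98.6 of 292 stretches), and the treated library was at 0.94.

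**Figure D5:**
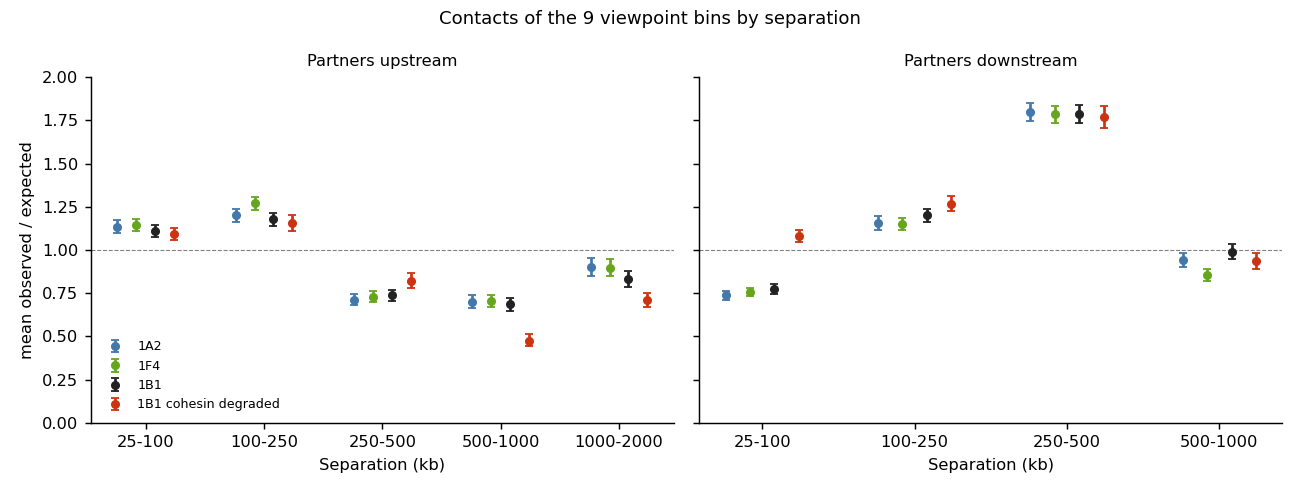
Mean observed/expected of the 9 viewpoint bins by separation in kb, upstream on the left and downstream on the right, with 1 point per library, 95% counting intervals and the isolated bin pair left out. The treated library stands apart at 25 to 100 kb downstream (1.08 against 0.74 to 0.77) and at 500 to 1000 kb upstream (0.48 against 0.68 to 0.70), and all libraries lie between 1.77 and 1.80 at 250 to 500 kb downstream.

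Between 60 and 900 kb the viewpoint had more downstream than upstream contact in all libraries. The log2 ratio of downstream to upstream contact was 0.36 ± 0.02 (counting SE) in 1A2, 0.31 ± 0.02 in 1F4, 0.44 ± 0.02 in 1B1, against 0.50 ± 0.02 in the treated library. The difference of treated from 1B1, 0.07 ± 0.03, was near the middle of 155 stretches elsewhere (percentile 56.8, SD 0.52), and from the start bin alone it was 0.24.

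Of the contacts of the Golph3 start with other gene starts, the strongest among those with at least 20 read pairs in every library was with the bin that holds the divergent starts of Drosha, the nuclear RNase that cuts primary microRNAs, and 6030458C11Rik (499.2 kb downstream). It had an observed/expected of 3.53 in 1A2 (100 read pairs), 2.62 in 1F4 (89 read pairs), 2.92 in 1B1 (93 read pairs), against 2.99 in the treated library (64 read pairs), with a log2 ratio of treated to 1B1 of 0.03 (-0.45 to 0.51). With the start of Pdzd2 (416 kb downstream, 3 bins before the named far bin) it was 1.92, 1.90, 1.79 and 2.10, a log2 ratio of 0.23 (-0.17 to 0.63). The mean of all viewpoint bin pairs 250 to 500 kb downstream was near this level, at 1.80, 1.79, 1.79 and 1.77. With the nearest upstream coding start, that of Mtmr12, a gene for a catalytically inactive myotubularin (115.2 kb away), observed/expected was 1.65, 1.52, 1.55 and 1.55, a log2 ratio of 0.00 (-0.31 to 0.31).

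The starts of Zfr (204.8 kb upstream) and Gm2606 (249.6 kb downstream) gave 1.70, 1.52, 1.44 and 1.57 and 1.55, 1.72, 1.61 and 1.70. The start of Sub1 (326.4 kb upstream), a gene for a transcriptional coactivator that binds single-stranded DNA, gave 1.116, 1.31, 1.52 and 1.27, a log2 ratio of treated to 1B1 of -0.27 (-0.72 to 0.17). The 3 ratios for Zfr, Gm2606 and Sub1 all had intervals that included 0.

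Of the 7 bins with coding starts and at least 20 read pairs in both libraries (Drosha and 6030458C11Rik share 1), 1 was over 1.5-fold higher after degradation and 0 were over 1.5-fold lower, where 5.26% and 6.32% of the 95 pairs of coding gene starts in the region were past these limits. Against 1A2 as the untreated library 0 of 7 were past either limit (6.52% higher and 8.7% lower of 92 pairs in the region), and likewise against 1F4 (7.29% and 10.4% of 96). With windows of 5 by 5 bins, 0 of 16 were higher and 3 lower, where 5.48% and 10.3% of 146 pairs of the region were. The higher one in windows of 3 by 3 bins was Npr3, the clearance receptor for natriuretic peptides (416 kb upstream), at 0.72, 0.79, 0.60 and 1.00, with a log2 ratio of 0.75 (-0.03 to 1.52). The median log2 ratio was 0.08 over the 7 bins and -0.03 over the 95 pairs. The start of Tars, a threonyl-tRNA synthetase gene (921.6 kb upstream), was outside this count because it kept only 10 read pairs after degradation. It was at 1.75 in 1A2 (30 read pairs), 2.18 in 1F4 (39 read pairs) and 1.72 in 1B1 (33 read pairs), against 0.66 in the treated library, a log2 ratio of -1.38 (-2.56 to -0.32), at percentile 4.95 of 303 windows of that separation.

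Local maxima of the start-bin profile in the untreated lines were called from their mean observed/expected, their read pairs and the surrounding ring of bins. Besides the peak that holds the isolated pair, 3 were found, all upstream. The one in Tars (928 kb upstream) was at 2.12, 2.02, 1.63 and 0.38, and only 7 read pairs remained after degradation. The one in Sub1 (339.2 kb upstream) was at 1.33, 1.303, 1.38 and 0.97, and the one before Mtmr12 (121.6 kb upstream) at 1.88, 1.75, 1.76 and 1.41. All 3 were lowest in the treated library, and they were chosen on the untreated ones.

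The largest rise of the start-bin profile from 1B1 to the treated library, with the same minimum of 20 read pairs as below, lay 96 kb downstream, in an exon-containing bin of Pdzd2. There observed/expected was 0.70 in 1A2, 0.76 in 1F4, 0.75 in 1B1, against 1.47 in the treated library (105, 138, 118 and 192 read pairs), a log2 ratio of 0.97 (0.63 to 1.31). The next window, in an intron of Npr3 (422.4 kb upstream), was at 0.81, 0.98, 0.60 and 1.02 in the same order. Its log2 ratio of treated to 1B1 was 0.77 (0.00 to 1.53) with 31 read pairs in both, but only 0.33 (-0.40 to 1.05) to 1A2 and 0.05 (-0.63 to 0.701) to 1F4, since 1B1 was the lowest library. The third window, 678.4 kb downstream, was at 0.98, 0.63, 0.76 and 1.28 with 26 or fewer read pairs in each library, a log2 ratio of 0.76 (-0.14 to 1.67) to 1B1, 0.397 (-0.48 to 1.28) to 1A2 and 1.04 (0.08 to 2.03) to 1F4. Among local extrema with at least 20 read pairs in both libraries, a minimum that the fallen contacts of Tars did not meet, the largest fall lay in Drosha, 556.8 kb downstream and beyond its start, with 1.503, 1.89, 2.03 and 1.02, a log2 ratio of -0.99 (-1.69 to -0.33) to 1B1, -0.56 (-1.29 to 0.15) to 1A2 and -0.89 (-1.59 to -0.21) to 1F4. A window 262.4 kb upstream was at 0.49, 0.73, 1.02 and 0.62, so that 1B1 was the highest library. Its log2 ratio was -0.72 (-1.48 to 0.00) to 1B1 and -0.25 (-1.05 to 0.52) to 1F4, and it turned to 0.33 (-0.501 to 1.14) to 1A2. The window in Zfr, 153.6 kb upstream, was at 1.26, 1.43, 1.301 and 0.799 and was lowest in the treated library, with log2 ratios of -0.70 (-1.16 to -0.26), -0.65 (-1.12 to -0.20) and -0.84 (-1.28 to -0.41) to 1B1, 1A2 and 1F4. These windows were ranked by the values given, which are a description.

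Over the whole viewpoint, 123 of 1420 windows with at least 20 read pairs in both libraries (8.66%) were over 1.5-fold higher in the treated library than in 1B1 and 47 (3.31%) were over 1.5-fold lower. In the region as a whole 15.4% and 9.15% of windows were past these limits. The excess of higher windows depended on the scaling, since with the median for the expected value 80 viewpoint windows were higher and 80 lower (13.6% and 11.2% in the region). The read minimum also bears on it, because windows with few reads after degradation are not counted. At 250 to 1000 kb upstream 291 windows were counted, 49 higher and 4 lower, against 526 counted between 1F4 and 1A2. Yet the mean at 500 to 1000 kb upstream was lower after degradation (log2 ratio -0.52). Leaving out the 9 windows that hold the isolated pair gave 117 higher and 47 lower of 1411. Against 1A2 the treated library had 157 higher and 31 lower windows of 1375 (17.5% and 10.8% in the region), and against 1F4 143 and 48 of 1390 (19.8% and 10.9%). Between the untreated lines 1F4 and 1A2, 25 and 27 of 1629 viewpoint windows were past the limits, where the region gave 2.67% and 4.08%. Adjacent windows share reads, so their number is not a number of separate contacts.

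The start-bin profile correlated across 145 partner bins with a Pearson r of 0.91 to 0.94 between untreated libraries and of 0.78 to 0.79 between the treated library and each of them. These bins share libraries and neighbouring windows share reads, so the values are descriptive. The gene starts whose change from 1B1 to treated cells was most like that of Golph3 were Cdh6 (r = 0.36 over 75 bins), a cadherin gene, Npr3 (r = 0.35 over 104 bins) and Rai14 (r = 0.22 over 38 bins). All of these correlations were weak.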

How the data were processed

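Tiled Capture-C maps of 4 libraries were analysed. According to the methods and the submitters' processing notes, the authors digested crosslinked chromatin with MboI, enriched target regions with oligonucleotides, mapped read pairs to mm9 with HiC-Pro 2.11.4 and kept unique valid pairs within the targets. The deposited values are an ICE-balanced contact signal per pair of 6.4 kb bins, scaled by the authors to the same sum in every library; they are not counts. Whole reads were recovered from them, since a balanced value is the read number times 1 factor per bin, and 100% of values came within 0.05 of a whole read. Depth was 3214144 (1A2), 4089968 (1F4), 3234581 (1B1) and 3622612 (1B1 cohesin degraded).

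Observed/expected, windows, insulation and counting intervals were computed with Python 3.11.15, numpy 2.4.6 and scipy 1.17.1, and sequences were compared with blastn 2.17.0. The scripts were tested on simulated maps. Gene positions came from GENCODE vM1 on NCBIM37, whose chromosome lengths equal those of the bin table. Windows with fewer than 20 read pairs in either library were not counted, and 1 unmapped bin per library was left out. Named contacts were the 5 nearest coding starts over 60 kb away (Npr3 and Pdzd2 tied for the last place) and any within 3 bins of the far bin, local maxima of the untreated profile, the 3 largest rises and falls, and the 3 most similar gene starts; Drosha, 6030458C11Rik and Tars were named in addition after their values were seen. The viewpoint and all lists were chosen with earlier results of these data known. Alternatives covered the window, the expected value, balancing, the untreated library and read minimum.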

Additional observations from a re-analysis of the deposited data

How the results depend on the processing

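No paired analysis was possible because each group holds 1 library, and leaving out a replicate was likewise not possible. Log2 ratios are of the cohesin-degraded library to 1B1. Of 72 alternative values, 42 moved by less than the counting interval or 1.5 times, 27 moved by more without a change of sign, and 3 changed sign. Counts, motif matches and correlations have no direction. Counts that moved to or from 0 are among those without a change of sign. Without division by the expected value, the far contact had a log2 ratio of 0.10 from the start bin and 0.17 from the upstream bin. Without the isolated bin pair the start-bin ratio was 0.19, and the single bin pair of the named upstream bin gave 1.33, from only 6 read pairs after degradation and 3 in 1B1 (8 in 1A2 and 8 in 1F4), too few to compare; that of the start bin held no reads in at least 1 library and gave no value. The Golph3 start bin alone gave 0.24 for the downstream to upstream difference, -0.13 at 25 to 100 kb upstream, and 0.67, 0.29 and 0.13 at 25 to 100, 100 to 250 and 250 to 500 kb downstream, the last with its sign turned from a value whose interval included 0. Reads without balancing gave -0.094 and -0.13 at 25 to 100 and 100 to 250 kb upstream, and 0.37, -0.0047 and 0.020 at 25 to 100, 100 to 250 and 500 to 1000 kb downstream, where the sign turned at 100 to 250 kb, from 0.08 (0.01 to 0.15), whose interval excluded 0, and at 500 to 1000 kb, from -0.08, whose interval included 0; the cause was not tested. Division by the median gave 0.022 at 250 to 500 kb upstream and -0.15 at 250 to 500 kb downstream. Insulation at the start bin changed by 0.055 with a square of 10 bins, 0.14 on unbalanced reads and 0.30 on observed/expected values. Counts of gene starts were 0 higher and 3 lower of 16 with 5 by 5 bins (5.48% and 10.3% in the region), and 0 higher and 0 lower of 6 with at least 50 reads (7.55% and 3.77%). Counts of viewpoint windows were 5 higher and 5 lower of 1420 at 2-fold (3.22% and 1.82% in the region), 80 higher and 80 lower of 1420 with the median (13.6% and 11.2%), and 83 higher and 28 lower of 1049 with at least 50 reads (11.7% and 7.35%). The correlation of the treated profile with 1B1 was 0.86 with 5 by 5 bins and 0.71 without the isolated pair. The looser motif occurred in 2 viewpoint bins. With 1 library per group, variation between cultures was not measured.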
